A study of Mus musculus with 6 samples.

Results

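Apolipoprotein L9 is encoded in the mouse by a pair of near-identical genes, Apol9a and Apol9b, and their measured RNA in natural killer (NK) cells is described here together with that of Apol6 and Apol10b. These 4 genes were chosen from the 14 apolipoprotein L family genes found among 56953 genes in the count files, because Apol9b was higher in hypoxia while other interferon-stimulated genes were lower. The values that chose them are the hypoxia against normoxia differences themselves, so the members' differences are given as a description, without a test. NK cells were isolated from the spleen of wild-type C57BL/6 mice and cultured for 7 days with interleukin-2 (1700 U/ml) at 5% CO2. The hypoxia group was kept at 1% oxygen and the normoxia group at 20% oxygen, with 3 libraries each. Both groups are interleukin-2-driven cultures. The labels call the libraries biological replicates but name neither the mouse nor the culture behind each. Errors and p-values therefore cover only library-to-library spread, and whether that spread includes differences between mice is unknown. Library totals were 55104810 to 55794698 estimated counts, which puts 1 count at about 0.018 CPM (counts scaled to a common library total).

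Apolipoprotein L proteins are membrane-associated, lipid-binding proteins that are known mainly from host defence: human APOL1 is the serum factor that lyses trypanosomes. Mouse APOL9 proteins bind the phospholipid phosphatidylethanolamine, and their genes are induced by interferon. Type I interferon acts through the receptor-bound kinases JAK1 and TYK2 on a transcription factor complex that includes IRF9 and binds interferon-stimulated response elements in the promoters of its target genes.

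How far the copies can be told apart was read from their sequences, because a read from a stretch that both share cannot be assigned by its letters. In the GENCODE M21 transcripts the coding sequences of Apol9a and Apol9b were both 933 bases long and differed at 14 bases (98.5% identity). The encoded proteins of 310 residues differed at 10 residues (96.8% identity). Counted from the first coding base, with the Apol9a base first, the first difference was T47C and the next was C494T, so coding bases 48 to 493 were the same in both. The most divided stretch, coding bases 460 to 579, is printed for both copies, with the 7 bases that differ in capitals, since these are the letters on which a read could be placed.
Apol9a: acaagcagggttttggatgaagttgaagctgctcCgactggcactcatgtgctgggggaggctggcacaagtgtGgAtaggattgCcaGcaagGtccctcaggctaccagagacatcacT
Apol9b: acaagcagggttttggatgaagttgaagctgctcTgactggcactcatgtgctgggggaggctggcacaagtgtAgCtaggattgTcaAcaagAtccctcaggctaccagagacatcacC
The 7 substitutions are C494T, G534A, A536C, C545T, G548A, G553A and T579C, of which G534A and T579C leave the residue the same.

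Counted in stretches of 31 bases, 455 of 1500 stretches in the main Apol9a transcript (30.3%) were lacking from Apol9b. For the main Apol9b transcript it was 538 of 1543 (34.9%). The remaining stretches were common to both genes, and most of the first 460 coding bases fell among them. Apol9a also has a longer annotated transcript, of 4246 bases. Over all annotated transcripts of each gene, 20.2% of 5927 Apol9a stretches and 64.9% of 1844 Apol9b stretches were shared with the other copy. The map of distinct stretches covers the main transcripts. In these, the letters separating the copies lay around T47C near the start of the coding sequence, in its second part, in the region after it and, for Apol9b alone, at the start of the transcript. The other 2 members are set apart by sequence: Apol10b shared at most 8.63% of its 31-base stretches with another family gene, namely Apol10a.

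**Figure D1:**
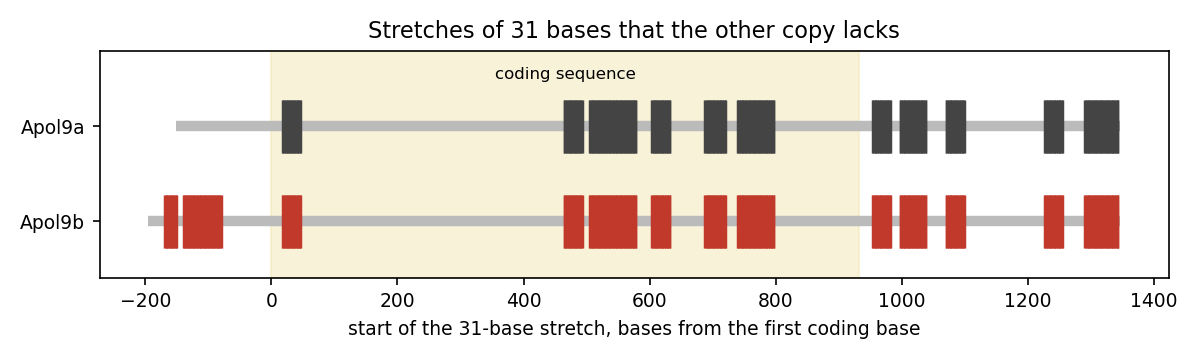
Each vertical line marks the start of a 31-base stretch that the other Apol9 gene lacks, by its distance in bases from the first coding base, for the main coding transcript of each gene. Grey bars are the transcripts and the shaded area is the 933-base coding sequence. Distinct stretches are 30.3% of the Apol9a transcript and 34.9% of the Apol9b transcript.

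The starts of the pair are also alike. In the RefSeq promoter table (250 bases before to 50 after each start, build GRCm38.p6, an earlier one than that of the counts), the windows of Apol9a and Apol9b shared a run of 327 bases without a difference. A stretch of 120 bases of it, ending just before the upstream of the annotated starts of Apol9b, is printed because it carries the interferon motif. It lies at chr15:77411103-77411222 on the minus strand for Apol9a and at chr15:77728952-77729071 on the plus strand for Apol9b. Capitals mark a pair of overlapping matches to the core of the interferon-stimulated response element.
Apol9a and Apol9b promoter: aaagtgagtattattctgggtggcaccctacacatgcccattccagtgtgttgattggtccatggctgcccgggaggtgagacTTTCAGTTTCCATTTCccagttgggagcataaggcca
The motif searched was GAAANNGAAA on either strand, and the 2 matches overlap each other. It was present in 3.44% of 32851 promoter windows of the same length, so the pair's window holds letters that few promoters hold. Among the 12 family genes with a promoter entry, 8 held it: 2 matches each in Apol9a, Apol9b, Apol7c and Apol7e, and 1 each in Apol10a, Apol10b, Apol11a and Apol11b. The match in Apol10b began 4 bases before its start. Of the listed interferon-stimulated genes, 17 of 35 held it. The hypoxia response element core (ACGTG or GCGTG, either strand) was present in 43.8% of all windows. It was found once in 1 of the Apol9b windows, 246 bases before the start, and was not matched in the windows of Apol9a or Apol10b. A match is a run of letters and was not tested for binding.

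Apol9b was the most abundant of the 4 members and stood about 4-fold higher in hypoxia. Its estimated counts in hypoxia replicates 1 to 3 were 972, 965 and 1033. In normoxia replicates 1 to 3 they were 229.8, 240.0 and 245.8. All 3 hypoxia libraries lay far above all 3 normoxia libraries, with no overlap.

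Scaled for composition with the trimmed mean of M-values (TMM), the Apol9b level was 17.0, 16.7 and 18.4 CPM in hypoxia (17.4 ± 0.883, SD, n = 3). In normoxia it was 4.38, 4.35 and 4.50 CPM (4.41 ± 0.0797, SD, n = 3). The fitted log2 fold change was 1.98 with a standard error of 0.09, a 3.94-fold difference. The ratios of same-numbered libraries were 3.89, 3.85 and 4.09, so each replicate number gave nearly the same difference. Spread within a group was small: the coefficient of variation was 5.08% in hypoxia and 1.81% in normoxia, against 3.18% and 6.47% from counting error alone. Among all 15591 tested genes, 148 had a larger fitted increase, and 7 of these were among the 9954 genes with a mean of at least 5 CPM. In these bulk samples, more cells with Apol9b RNA and more of it per cell cannot be told apart.

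Apol9a was near the bottom of the measurable range. Its estimated counts were 4.52, 11.2 and 10.4 in hypoxia and 3.19, 1.01 and 1.16 in normoxia. The groups did not overlap, and hypoxia replicate 1 was the lowest of its group and closest to normoxia replicate 1. The rounded totals of 26 and 5 counts gave a scaled ratio of 4.94, with a 95% exact interval of 1.87 to 16.5 that covers counting error only. The ratios of same-numbered libraries were 1.53, 10.5 and 9.73. On the log2 scale the ratio was 2.19. With 1 library left out it ran from 1.90 (without normoxia replicate 2) to 2.95 (without normoxia replicate 1). It was 1.48 from the authors' deposited log2 CPM and 3.26 with both replicate 1 libraries left out. Apol9a did not pass the filter on low counts. Its fitted log2 fold change without the filter was 2.21.

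Whether the few Apol9a counts moved apart from those of Apol9b was examined as a share of the pair. Apol9a held 0.463%, 1.15% and 0.998% of the pair's counts in hypoxia replicates 1 to 3. In normoxia replicates 1 to 3 it held 1.37%, 0.421% and 0.470%. The shares overlapped between groups, and the highest and the lowest of the 6 were both normoxia libraries. Summed over each group, the share was 0.873% in hypoxia (Wilson 95% interval 0.593% to 1.27%) and 0.744% in normoxia (0.297% to 1.61%). A difference in the division of the pair was not detectable at this depth, and the higher Apol9a value in hypoxia cannot be told apart from a constant small share of a larger pair.

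The division itself is visible in the decimals of the deposited values. At a tolerance of 0.001, 0 of the 6 Apol9a values and 1 of the 6 Apol9b values were whole, against 5 of the 6 sums of both. The exception was normoxia replicate 2, where Apol9b alone was whole within 0.001 and the sum lay 0.014 from a whole number. In the other libraries the fractional parts of the copies added up to a whole number at that tolerance. The sum was 17.1, 16.9 and 18.6 CPM in hypoxia (17.5 ± 0.898, SD, n = 3) and 4.44, 4.36 and 4.52 CPM in normoxia (4.44 ± 0.0760, SD, n = 3). Its log2 fold change of 1.98 (standard error 0.09) equals that of Apol9b alone to 2 decimals.

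**Figure D2:**
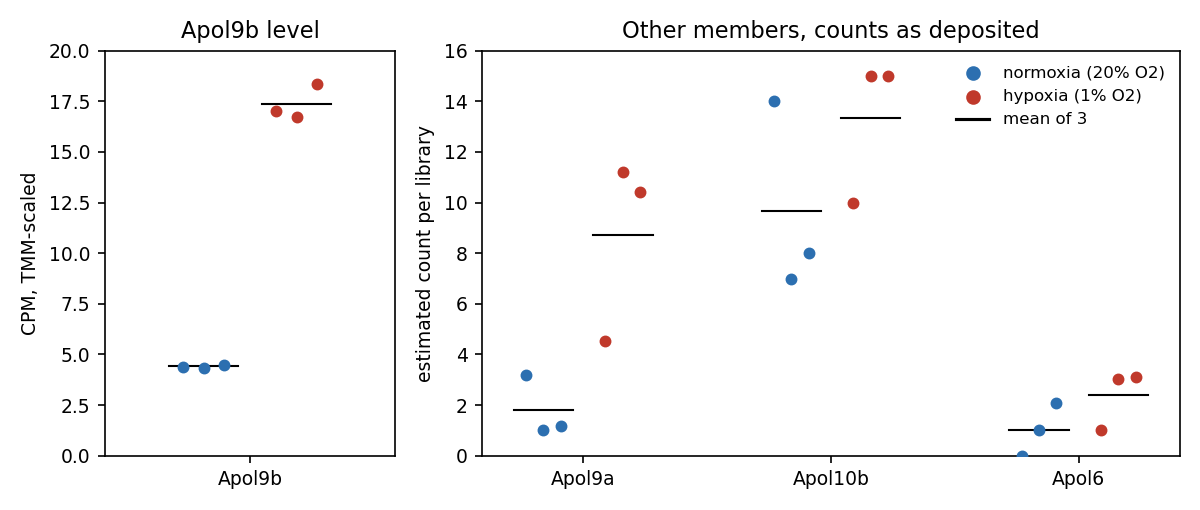
Left, Apol9b in TMM-scaled CPM per library. Right, deposited estimated counts per library of Apol9a, Apol10b and Apol6. Points are libraries, blue for normoxia and red for hypoxia, and lines are means of 3. Apol9b is at 16.7 to 18.4 CPM in hypoxia and 4.35 to 4.50 CPM in normoxia, whereas the groups overlap for Apol10b and Apol6.

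**Figure D3:**
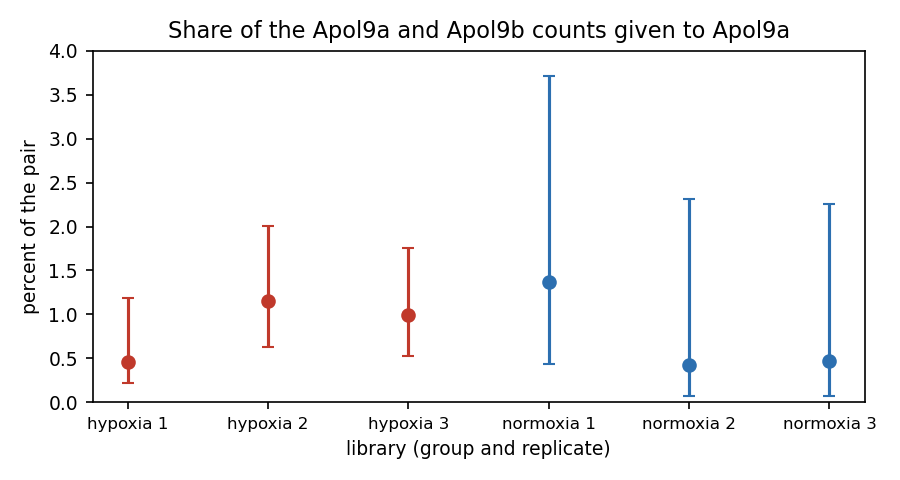
Percent of the summed Apol9a and Apol9b estimated counts that was given to Apol9a in each library, with Wilson 95% intervals. Hypoxia libraries are red and normoxia libraries blue. Shares run from 0.421% to 1.37%, and the intervals of all 6 libraries overlap.

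Apol10b did not follow Apol9b. Its estimated counts were 10, 15 and 15 in hypoxia and 14, 7 and 8 in normoxia, all of them whole numbers. Normoxia replicate 1 lay among the hypoxia libraries, so the groups overlapped. The level was 0.234 ± 0.0510 CPM in hypoxia and 0.180 ± 0.0757 CPM in normoxia (SD, n = 3), with a log2 fold change of 0.38 and a standard error of 0.40. The ratio from the totals of 40 and 29 counts was 1.31, with a 95% exact counting interval of 0.792 to 2.19.

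Apol6 was barely detected. Its estimated counts were 1.00, 3.04 and 3.11 in hypoxia and 0, 1.03 and 2.07 in normoxia, and the groups overlapped. The totals of 7 and 3 counts gave a ratio of 2.22 with an interval of 0.506 to 13.3, which covers no difference as well as a large one. On the log2 scale the ratio was 1.15, and it ran from 0.57 without normoxia replicate 1 to 2.17 without normoxia replicate 3. Of the 4 members, 2 passed the filter on low counts (Apol9b and Apol10b), and 2 did not.

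Per kilobase of the main coding transcript, the order of the members' levels was the same in both groups. Apol9b was at 11.0 CPM per kilobase in hypoxia and 2.80 in normoxia. Apol10b was at 0.101 and 0.0774, and Apol9a at 0.0994 and 0.0204. Apol6 was lowest, at 0.0177 and 0.00787 CPM per kilobase. Neighbours in this order that do not differ beyond their spread were Apol10b and Apol9a in hypoxia, and Apol9a and Apol6 in normoxia.

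The most abundant family gene was none of these members but Apol7e. Its level was 147, 181 and 192 CPM in hypoxia and 176, 190 and 171 CPM in normoxia, with overlapping groups. Its log2 fold change was -0.05 (adjusted p = 0.81, edgeR quasi-likelihood test with Benjamini-Hochberg adjustment over all tested genes). Apol7e held 84.1% to 85.8% of the family's counts in hypoxia and 93.4% to 94.2% in normoxia. Apol9b held 7.85% to 9.74% in hypoxia and 2.14% to 2.46% in normoxia.

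Of the 10 family genes that are not members, 4 were tested and 1 was called higher, Apol7b, while 0 were called lower. Across all tested genes 11.2% were called higher and 9.72% lower. With 4 tested genes, this share of the family is too coarse to set against that background. Apol7b was at 7.04, 11.9 and 10.7 CPM in hypoxia and at 3.79, 5.45 and 4.73 CPM in normoxia, without overlap. Its log2 fold change was 1.08 with a standard error of 0.20 (adjusted p = 0.0046, edgeR). Apol7b shared 79.4% of its 31-base stretches with Apol7e, which is present at a many-fold higher level, so its value is uncertain.

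Apol8 lies next to Apol9b on the chromosome and varied widely within its groups. Its estimated counts were 84.0, 68 and 45.0 in hypoxia and 8, 26 and 45 in normoxia, so the groups met at hypoxia replicate 3 and normoxia replicate 3. The log2 fold change was 1.25 with a standard error of 0.45 (adjusted p = 0.080, edgeR), and it passed with the replicate number as a block (adjusted p = 0.033).

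Apold1, a distant relative on another chromosome, was at 1.93, 1.44 and 1.37 CPM in hypoxia and 1.88, 1.92 and 1.61 CPM in normoxia, with overlap (adjusted p = 0.53, edgeR). Apol7c was too low to be tested: its estimated counts were 6.0, 2.4 and 8.0 in hypoxia and 11.0, 9.01 and 11.3 in normoxia, the opposite order to Apol9b. Apol7a, Apol10a and Apol11a were at about 1 count or 0 in every library, and Apol7d and Apol11b were at 0 in all 6.

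Interferon-stimulated genes, the company in which Apol9b is usually listed, were mostly lower in hypoxia. Of 46 listed genes other than the members, 45 were tested, and 38 were called lower and 0 higher. Over all tested genes 9.72% were called lower and 11.2% higher. The median of the 45 on the log2 scale was -1.07, against -0.01 over all tested genes. Groups did not overlap for 39 of the 45, all lower in hypoxia, while groups did not overlap for 38.3% of all tested genes in either direction. This list entered the choice of Apol9b and is given as its setting.

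Oasl1, a member of the oligoadenylate synthetase-like family, was at 0.491, 0.520 and 0.516 CPM in hypoxia and at 11.6, 11.5 and 8.26 CPM in normoxia (log2 fold change -4.35, adjusted p = 3.2e-06, edgeR). Usp18, a negative regulator of interferon receptor signalling, fell from 16.4 ± 1.43 to 2.46 ± 0.280 CPM (SD, n = 3; log2 fold change -2.74, adjusted p = 3.2e-06, edgeR). Of the abundant members, Sp100 had an adjusted p of 0.043 (edgeR; 166 against 202 CPM), and the call was lost in 7 of 14 alternatives.

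Only 3 of the 45 had a fitted value above 0, and none of these passed: Ifit1bl1 (log2 0.47, adjusted p = 0.29), Samd9l (0.10, adjusted p = 0.42) and Isg20 (0.06, adjusted p = 0.76), by edgeR. Ifit1bl1 and Isg20 were named after their values were seen. The fitted value of Apol9b, 1.98, lay above all 45, which run from -4.66 to 0.47. The guanylate-binding proteins and immunity-related GTPases are defence proteins induced mainly by interferon gamma. Of 16 tested, 7 were called lower and 0 higher, where 9.72% of all tested genes were called lower and 11.2% higher.

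Gbp6 fell from 75.5 ± 9.74 to 31.7 ± 6.95 CPM and Irgm1 from 65.7 ± 3.28 to 45.5 ± 1.04 CPM (SD, n = 3; adjusted p = 0.00044 and 0.00062, edgeR). Ifi47 had an adjusted p of 0.043, lost in 9 of 14 alternatives. Gbp4 had a log2 fold change of -0.28 (adjusted p = 0.051, edgeR), and it passed with the replicate block (adjusted p = 0.0014).

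**Figure D4:**
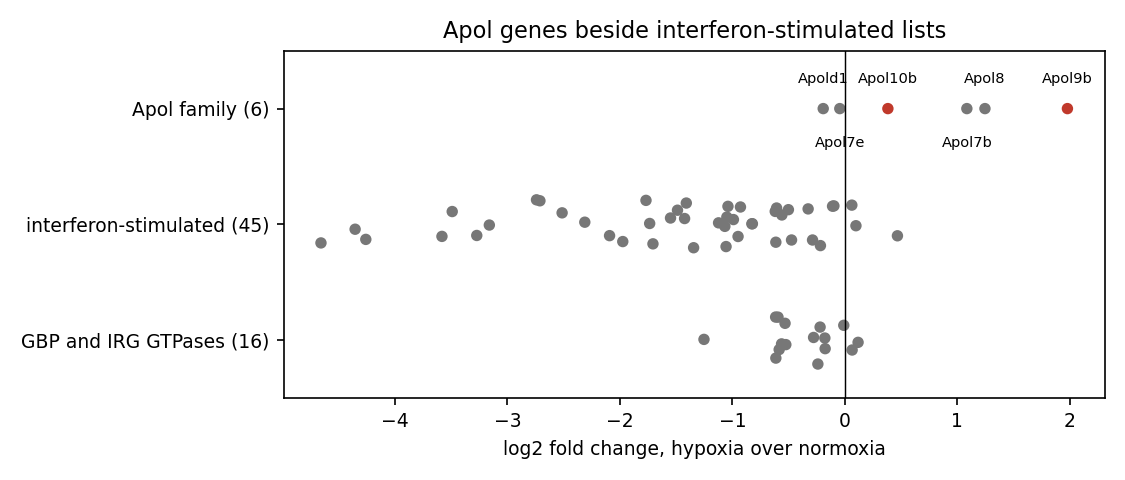
Fitted log2 fold change, hypoxia over normoxia, of each tested gene in 3 lists, 1 point per gene, with vertical jitter in the lower lists. Red points are members (Apol9b, Apol10b). Apol9b, at 1.98, lies to the right of all 45 interferon-stimulated genes, whose highest value is 0.47.

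In the signalling chain that leads to these genes, 20 of 22 listed ligands, receptors, kinases and factors were tested. Of these, 7 were called lower and 0 higher, against 9.72% lower and 11.2% higher of all tested genes. Irf9, the DNA-binding subunit of the interferon-activated complex, was at 19.2, 20.5 and 20.5 CPM in hypoxia and at 59.7, 62.5 and 54.1 CPM in normoxia (log2 fold change -1.55, adjusted p = 5.6e-06, edgeR). Irf8, a factor of the same family, was at 269 ± 12.4 against 601 ± 25.4 CPM (SD, n = 3; log2 fold change -1.16, adjusted p = 1.7e-05, edgeR). Jak1, the most abundant, had a log2 fold change of 0.11 (adjusted p = 0.34, edgeR).

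Because APOL9 binds phosphatidylethanolamine, the genes that make and remodel this lipid were listed too. Of 18 tested, 2 were called higher and 3 lower, and the median over the list was -0.09 on the log2 scale. Beside 11.2% higher and 9.72% lower over all tested genes, these counts are not a result about the list, and its called genes are given as single values. Those called lower were Etnk1, the ethanolamine kinase of the first step, Pcyt2, the enzyme of the next step, and Lpcat3, which remodels the acyl chains of phospholipids. Pcyt2 was at 98.5 ± 1.26 against 146 ± 12.3 CPM, Etnk1 at 142 ± 4.31 against 206 ± 13.7 CPM and Lpcat3 at 56.2 ± 5.43 against 84.3 ± 3.26 CPM in hypoxia and normoxia (SD, n = 3; adjusted p = 0.0010, 0.0011 and 0.0010, edgeR). Mboat2 and Abhd4 rose (log2 0.46 and 0.39), and were named after their values were seen.

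Of other apolipoproteins and lipoprotein-handling genes, 2 were called higher and 2 lower of 16 tested, near the 11.2% and 9.72% over all tested genes. Pltp, the phospholipid transfer protein, rose from 22.9 ± 1.67 to 40.4 ± 5.23 CPM (SD, n = 3; adjusted p = 0.00057, edgeR). Abcg1, a cholesterol exporter, fell from 8.07 ± 1.85 to 3.58 ± 0.518 CPM (adjusted p = 0.0020, edgeR). Abca1 (log2 0.69) rose and Lrp8 (log2 -0.46) fell, both named after their values were seen. Apobr, an apolipoprotein B receptor, had a log2 fold change of 0.25 (adjusted p = 0.10, edgeR; 0.0019 with the replicate block).

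The family cluster lies on chromosome 15, and its neighbours were counted in the same way. Of 34 other genes within 500 kb of the cluster in the RefSeq table, 13 were tested, 3 were called higher and 1 lower, and their median was 0.03 on the log2 scale. Over all tested genes 11.2% were higher and 9.72% lower. With the replicate block 6 neighbours were called, 3 higher and 3 lower. The block also called more of all genes, 2988 higher and 3120 lower in place of 1745 and 1516. The nearest genes outside the cluster on the side of Apol9b were Myh9, a non-muscle myosin heavy chain (adjusted p = 0.87), and Txn2, the mitochondrial thioredoxin (adjusted p = 0.77, edgeR). Gm22107, a short gene model inside Myh9, was at 0.315 against 0.141 CPM (adjusted p = 0.047), a call lost in 8 of 13 alternatives.

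On the other side, Rbfox2, a splicing regulator, had a hypoxia level of 1.38 ± 0.207 CPM and a normoxia level of 0.566 ± 0.0322 CPM (SD, n = 3; log2 fold change 1.29, adjusted p = 0.0023, edgeR). Next to it, 1110038F14Rik and Zfp647 were not called. Gm36329, a long non-coding RNA between Apol7e and Apol9b, was at 0.789 against 0.418 CPM (log2 fold change 0.91, adjusted p = 0.016, edgeR). It is annotated antisense to the last exon of Apol7e, and the strand setting of the counting is not given in the sources used here. Whether reads from that overlap were assigned to the right gene is therefore unknown. The call was lost without hypoxia replicate 2 (adjusted p = 0.065) and without normoxia replicate 3 (0.050). Ift27, an intraflagellar transport gene at the far edge, was at 14.8 against 18.2 CPM (log2 fold change -0.30, adjusted p = 0.027, edgeR), lost in 7 of 14 alternatives.

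**Figure D5:**
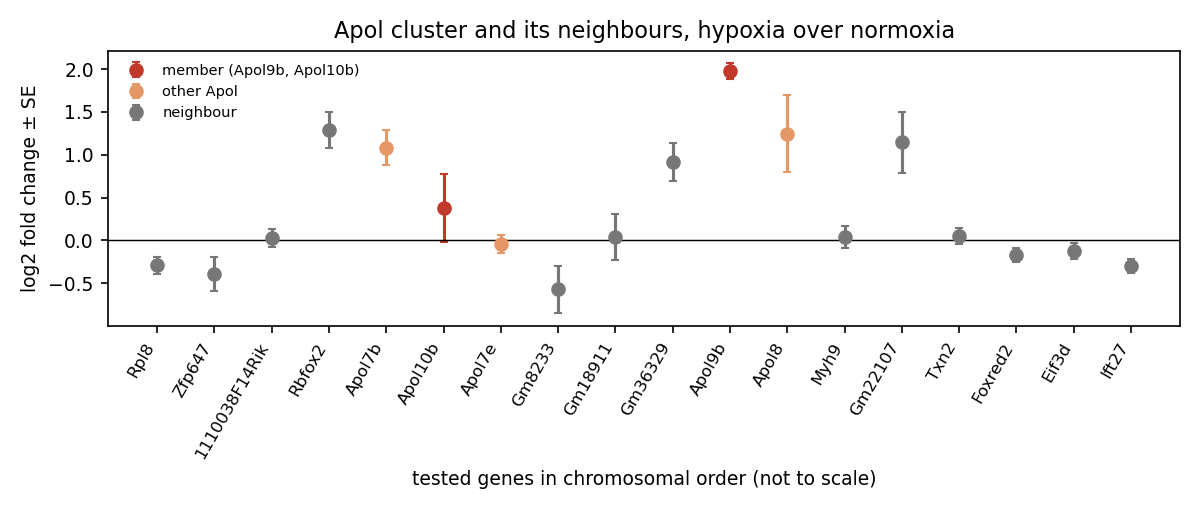
Fitted log2 fold change with its standard error for tested genes of the apolipoprotein L cluster and its neighbours, in chromosomal order and not to scale. Red is Apol9b and Apol10b, orange other family genes, grey neighbours. Apol9b at 1.98 stands between Gm36329 at 0.91 and Apol8 at 1.25, while Apol7e and Myh9 lie near 0.

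The genes closest to Apol9b in pattern were found by the root mean square difference of centred log2 CPM over the 6 libraries, among 9500 genes with a mean of at least 5 CPM. They were Arhgef12 (0.072), Scin (0.087), Serpine2 (0.115), Phlda3 (0.125) and Col27a1 (0.127). Arhgef12 was at 29.9, 27.2 and 28.7 CPM in hypoxia and at 7.46, 7.62 and 7.00 CPM in normoxia. Scin, an actin-severing protein, was at 463 ± 41.6 against 117 ± 11.8 CPM (SD, n = 3).

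For Apol9a the nearest of 9501 genes were Tmem176a (0.340), Gm2a (0.364), Nid2 (0.366), Spsb1 (0.368) and Egln3 (0.369). Because Apol9a did not pass the filter, its deposited log2 CPM was set against the TMM-scaled values of the other genes. The differences are several times those for Apol9b, but were not computed on the same values and rest on the few counts that Apol9a has.

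The cell type of the label was checked by its markers. The 12 NK cell markers summed to 26678 to 30769 CPM in hypoxia and 24282 to 27589 CPM in normoxia, mostly from the granzyme genes Gzma and Gzmb. Among them Gzma was called higher (log2 0.81), and Eomes (-0.63) and Klre1 (-0.35) lower (adjusted p = 0.00071, 0.0028 and 0.021, edgeR). Over all tested genes 11.2% were called higher and 9.72% lower. Dendritic cell markers summed to 5.08 to 6.28 CPM in hypoxia and to 8.97 to 10.1 CPM in normoxia. Of 5 tested, 1 was called higher and 3 lower. B cell, neutrophil, erythroid and endothelial markers each stayed below 3 CPM in sum. The B cell sum was 1.16 to 1.33 CPM in hypoxia and 0.402 to 0.838 CPM in normoxia. The neutrophil sum was 0.788 to 2.13 against 0.127 to 0.324 CPM. The erythroid and platelet sum was 0.320 to 0.473 against 0.0366 to 0.217 CPM. The endothelial and stromal sums overlapped between groups. Cd79b, S100a8 and S100a9 were called higher, each with group means under 1 CPM.

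The T cell, basophil and mast cell, and macrophage and monocyte marker sums were higher in hypoxia, as Apol9b was. So were the small B cell, neutrophil, and erythroid and platelet sums. The dendritic cell sum was lower. T cell markers summed to 197 to 249 CPM in hypoxia and 143 to 163 CPM in normoxia. Of 10, 3 were called higher (Cd3d, Cd3g and Cd4, log2 1.07, 0.87 and 1.69) and 0 lower (adjusted p = 0.00010, 0.00047 and 0.011, edgeR). Beside them, 11.2% of all tested genes were called higher and 9.72% lower. Cd4 was near the floor, at 0.700 ± 0.176 against 0.217 ± 0.107 CPM (SD, n = 3), and Cd4 and Cd5 were below 1 CPM in every library. Basophil and mast cell markers summed to 76.2 to 89.8 CPM in hypoxia and 19.1 to 27.3 CPM in normoxia, nearly all from Mcpt8, while 4 of the 6 were below 1 CPM (Fcer1a, Ms4a2, Gata2 and Prss34). Macrophage and monocyte markers summed to 51.0 to 83.7 against 15.7 to 29.4 CPM, mostly Cd68, with C1qa and Marco at 0 and 10 of 13 below 1 CPM, among them Lyz2 and Adgre1. Lyz2 was called higher at this low level, at 0.310 against 0 CPM (adjusted p = 0.0019, edgeR). In this list Cd14 went the other way, at 1.47 ± 0.303 against 3.88 ± 0.637 CPM (SD, n = 3; log2 -1.39, adjusted p = 0.0010, edgeR). Mcpt8 was at 79.7 ± 6.61 against 21.1 ± 4.10 CPM and Cd68 at 61.9 ± 16.5 against 16.4 ± 6.15 CPM (SD, n = 3). Whether such cells were present, and their part in the Apol9b difference, was not tested.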

How the data were processed

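RNA was measured in 6 libraries. The labels' protocols name column-purified RNA and stranded mRNA libraries. The submitters' processing notes name Trim Galore 0.6.4, kallisto 0.4.6, edgeR 3.17 and GRCm39. No annotation release is named in the labels. Estimated counts per gene were deposited without normalization. Of all values, zeros included, 69.5% were whole within 1e-06, and of the values above 0, 31.7% were. The authors also deposited log2 CPM values, which were not tested.

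Counts were rounded, filtered with filterByExpr (minimum count 10, minimum total 15; 15591 genes left), scaled with TMM and tested with edgeR 4.0.16 (quasi-likelihood, no covariates, Benjamini-Hochberg threshold 0.05). The biological coefficient of variation was 10.9%. The test was checked on simulated data for hypoxia against normoxia (15314 genes): it recovered 61.2% of genes changed 1.5-fold, 85.5% at 2-fold and 100% at 4-fold (65 genes), and called 12 of 15120 unchanged genes. DESeq2 1.42.0 and limma 3.58.1 served as alternatives. Symbols came from GENCODE M21 (52029 of 56953 IDs), an earlier build than that of the counts, as are the RefSeq tables. Sequences were compared with Biopython 1.88; 31 bases is the stretch length used for the comparison of copies. Intervals cover counting error only.

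Same-numbered libraries deviated together from their group means (correlations 0.47, 0.33 and 0.30), so the replicate numbers of the labels, by these correlations, were taken to pair the samples. The block that uses this pairing is an alternative. Unless the block is named, standard errors, p-values and shares of called genes come from fits that leave the pairing out. With the block the biological coefficient of variation was 5.64%.

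The members and lists were chosen with earlier results of these data known. Genes named were all members, all family genes with a count, and from each list the 2 with the smallest p and the 2 most abundant, except 1 that is not reported here. Called neighbours, the nearest on either side and the 5 genes most like Apol9a and Apol9b were added.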

Additional observations from a re-analysis of the deposited data

How the results depend on the processing

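The Apol9b log2 fold change ran from 1.94 to 2.06 over 17 alternatives, and that of the summed pair from 1.94 to 2.06 over 15. The top of both ranges came from scaling by library size alone (2.06 each). That scaling also moved the median of all genes to 0.08 and the calls to 2384 higher and 998 lower, against 1745 and 1516. With the replicate block, which uses the pairing of libraries by number, 6108 genes were called in place of 3261 (2988 higher, 3120 lower); it called 39 interferon-stimulated genes lower in place of 38, and Apol9b stayed at 1.98. Leaving out 1 library gave 1964 to 3616 called genes, lowest without hypoxia replicate 2, and 2088 without normoxia replicate 2. Called neighbours numbered 2 with the filter of 1 CPM in 3 libraries, 1 to 3 with 1 library left out and 6 with the block, against 4. The 1 neighbour count came without hypoxia replicate 2 or without normoxia replicate 3. The causes were not tested. Apol8 passed in 4 of 13 alternatives: without the filter (adjusted p = 0.0017), by DESeq2 (0.034), with the block (0.033) and without normoxia replicate 3 (0.022). Without the filter the fitted log2 was 1.05 for Apol6 and 2.21 for Apol9a. Depth limits Apol9a, Apol6 and Apol10b, at under 20 counts per library.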
